A study of Mus musculus with 8 samples.

Results

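The 41 genes described here encode sodium channel alpha and beta subunits (symbols of Scn, a digit and a or b), calcium channel alpha1, alpha2delta, beta and gamma subunits (Cacna, Cacnb and Cacng) and HCN channels (Hcn). They were chosen by symbol, without antisense transcripts, out of the 23481 genes of the deposited table, and each of the 41 is accounted for whether or not it was detected. The table holds counts of unique molecular identifiers (UMIs) from single nuclei of adult mouse midbrain, isolated, sorted by FACS and sequenced with the 10x 3' v3 chemistry, which counts 3' tags of transcripts. The mice, of a strain named DatCreEed and 8 months old, were mutant or wt (wild type), and the series asks what dopaminergic neurons transcribe without functional Polycomb repressive complex 2 (PRC2). Each genotype was 1 library pooled from 2 female mice and 1 male mouse, so there was no replicate, no test was possible, and genotype, library and mice cannot be told apart. Every interval below is a 95% interval for counting error alone.

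DatCre is a Cre recombinase driven in dopamine transporter cells, and Eed a core subunit of PRC2, the complex that methylates histone H3 at silenced genes. The labels state neither which part of Eed was deleted nor whether wt mice carry the Cre or an altered Eed allele. Eed stood at 41.3 CPM (UMIs of the gene per 1000000 UMIs of the class) in mutant dopamine nuclei and 21.4 CPM in wt dopamine nuclei, a level that checks nothing, since 3' tags can lie outside a deleted part. Hox genes, textbook targets of PRC2, gave 36167 UMIs in mutant dopamine nuclei and 3 UMIs in wt dopamine nuclei. The mutant library held 3968 nuclei (88201326 UMIs, median 17860 per nucleus) and the wt library 1772 nuclei (46540890 UMIs, median 21532.5), and the libraries shared 4 cell barcodes.

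Neurons of the ventral midbrain that release dopamine fire without input, and sodium, L-type and T-type calcium and HCN channels all take part in that pacemaking. Alpha subunits of sodium channels and alpha1 subunits of calcium channels form the pore, and the other subunits set its trafficking, gating and partners. HCN channels open on hyperpolarisation and carry the current known as Ih, by which dopamine neurons are often recognised in recordings. Several gamma subunits (TARPs) act mainly as partners of AMPA-type glutamate receptors.

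Nuclei were called dopamine nuclei when Th, Slc6a3, Slc18a2 and Ddc, the enzymes and transporters of dopamine, together gave at least 5 UMIs per 10000. This held for 2875 mutant nuclei (72.5%; 68742978 UMIs, median 19023) and 1320 wt nuclei (74.5%; 39383984 UMIs, median 24257.5). The remaining 1093 mutant nuclei (median 14650 UMIs) and 452 wt nuclei (median 12471.5 UMIs) are called other nuclei. Markers that the rule did not use were also high: 7 further dopamine neuron genes (Nr4a2, Lmx1b, Foxa2, Pitx3, En1, Ret and Dlk1) summed to 567 CPM in mutant and 662 CPM in wt dopamine nuclei, against 165 and 142 CPM in mutant and wt other nuclei. Near the limit, 775 mutant and 143 wt nuclei had 5 to 10 UMIs of the 4 genes per 10000, and 300 mutant and 124 wt nuclei had 2.5 to 5. The median of those 4 genes in dopamine nuclei was 13.7 per 10000 in the mutant library and 24.3 in the wt library, so the class sits closer to its limit in mutant nuclei.

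Other nuclei were mixed. By leading marker list, 153 mutant and 46 wt nuclei were GABA-tagged, 19 and 4 were glutamate-tagged, and 628 and 217 had no list at 5 UMIs per 10000. Oligodendrocyte lists led in 106 mutant and 80 wt nuclei, and astrocyte lists in 106 and 70. In dopamine nuclei the GABA list (Gad1, Gad2 and Slc32a1) summed to 179 CPM in the mutant and 34.0 CPM in the wt library, with none of the 3 at 0 in either. Gad1 itself stood at 99.4 CPM in mutant and 4.29 CPM in wt dopamine nuclei. The nigral list stood at 639 CPM in mutant and 801 CPM in wt dopamine nuclei, and the astrocyte list at 294 and 233 CPM. The part of these differences in the results that follow was not tested, except where a value is given.

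Levels of the 41 genes spanned more than 4 orders of magnitude, and the same members were near silent in both libraries. In dopamine nuclei, 17 members in the mutant and 16 in the wt library reached 100 CPM, and 8 in each stayed under 1 CPM. Those 8 were Scn4a and Cacna1s, the skeletal muscle pores, Cacna1f, the retinal L-type pore, the sensory neuron pores Scn10a and Scn11a, the beta subunit Scn4b, and the gamma subunits Cacng1, known from skeletal muscle, and Cacng6. Scn10a gave 3 UMIs in mutant and 0 UMIs in wt dopamine nuclei, and a count of 0 there allows up to 0.0762 CPM. Tags from nuclei arise along introns as well as at the 3' end, and across the 41 members the CPM followed the length of the gene (Spearman rho 0.74 in each library, a description across genes). Levels of different genes are therefore ranked as CPM per 100 kb of gene span, from the GENCODE M21 annotation of mm10. Shares of UMIs and sums over a family, also given below, are not corrected for length, so long genes weigh more in them.

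**Figure D1:**
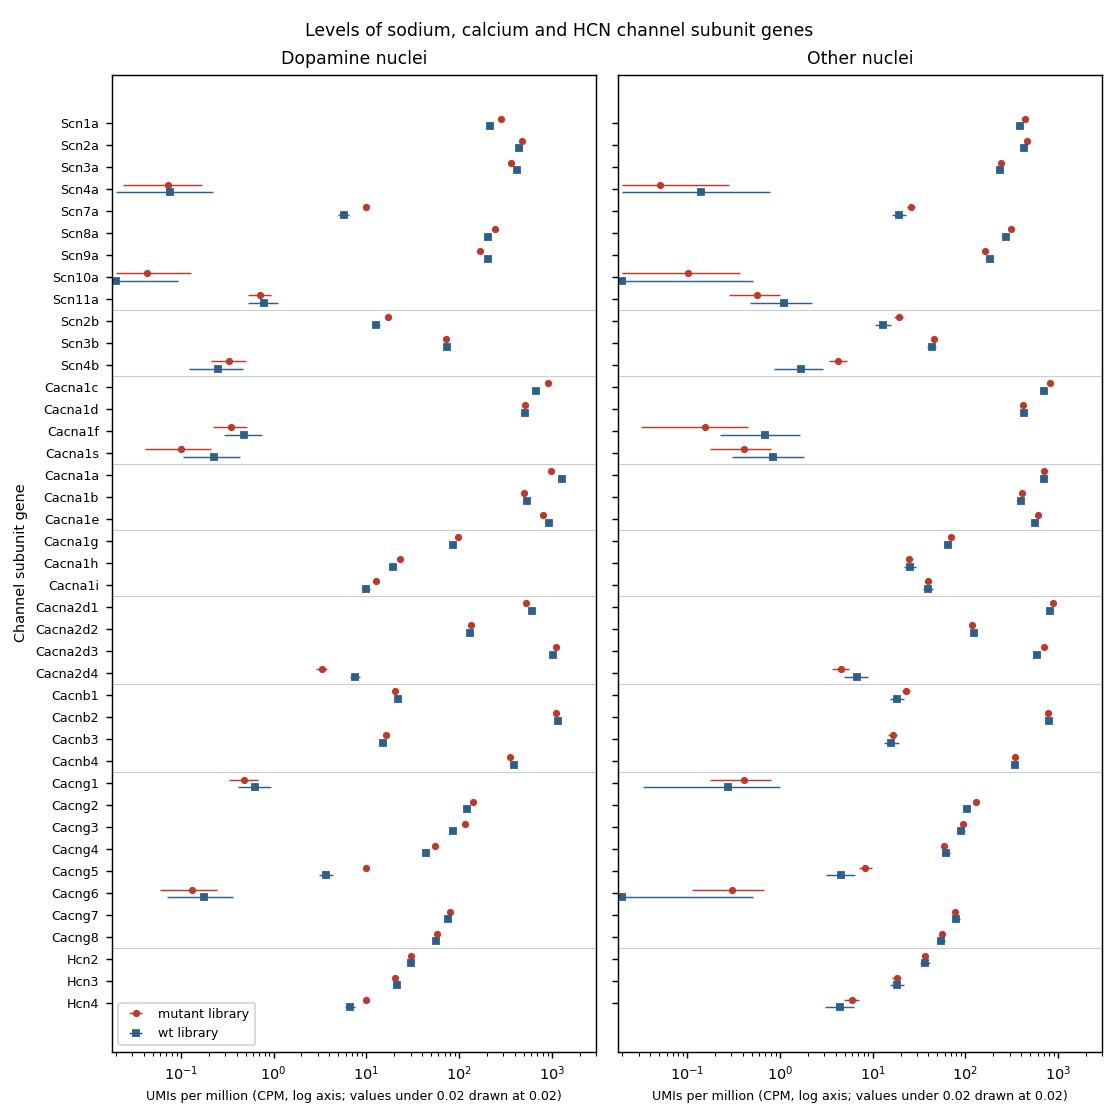
Level of each of the 41 genes, grouped by family, in CPM on a log axis, in dopamine nuclei (left) and other nuclei (right); circles are the mutant library and squares the wt library, with 95% Poisson intervals. Most pairs lie close together, Cacng5 is higher and Cacna2d4 lower in mutant dopamine nuclei, and 8 members lie under 1 CPM in dopamine nuclei of both libraries.

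Per 100 kb, Cacna1a, the P/Q-type pore of nerve terminals, was the highest member in dopamine nuclei, at 392 CPM per 100 kb in the mutant and 507 in the wt library. In other nuclei the highest was Scn2a, at 312 CPM per 100 kb in the mutant and 294 in the wt library. Among sodium channel pores Scn3a and Scn2a were the highest in dopamine nuclei. Scn3a, best known in rodents from the developing brain, stood at 325 CPM per 100 kb in the mutant and 380 in the wt library, and Scn2a at 322 and 301. In the mutant library the order turned on the nigral side, where Scn3a stood at 307 and Scn2a at 324 CPM per 100 kb. In other nuclei of both libraries the order was Scn2a, Scn1a and Scn3a. As a share of the UMIs of the sodium channel alpha genes described here, Scn3a made up 23.3% in mutant and 28.1% in wt dopamine nuclei, against 14.8% in mutant and 15.4% in wt other nuclei. By UMIs Scn2a had the larger share, at 30.6% in mutant and 29.6% in wt dopamine nuclei and 28.1% in other nuclei of each library. Scn1a, the pore most tied to fast-spiking interneurons, made up 18.6% in mutant and 14.5% in wt dopamine nuclei, against 26.6% and 25.3% in mutant and wt other nuclei. Of the beta subunit genes Scn2b, Scn3b and Scn4b, Scn3b had the highest level per 100 kb in all 4 classes. It held 80.6% of the UMIs of the 3 genes in mutant and 84.9% in wt dopamine nuclei, against 66.1% in mutant and 74.8% in wt other nuclei. Scn2b followed it, with 19% in mutant and 14.8% in wt dopamine nuclei and 27.7% and 22.3% in mutant and wt other nuclei.

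Among L-type pores, Cacna1d, the Cav1.3 subunit tied to pacemaking in dopamine neurons, and Cacna1c, the widespread Cav1.2 subunit, were close together. Cacna1d stood at 114 CPM per 100 kb in mutant and 115 in wt dopamine nuclei. Cacna1c stood at 149 CPM per 100 kb in mutant and 110 in wt dopamine nuclei, so the order of the pair differed between the libraries. Cacna1a led the P/Q, N and R group in all 4 classes, ahead of the N-type pore Cacna1b and the R-type pore Cacna1e. Cacna1g, the Cav3.1 pore, led the T-type group in all 4, and its share of T-type UMIs was 73.3% in mutant and 74.3% in wt dopamine nuclei, against 52.2% and 49.8% in mutant and wt other nuclei. By UMIs the remainder in other nuclei was mainly Cacna1i (Cav3.3), at 29.3% in mutant and 30.7% in wt other nuclei. In dopamine nuclei Cacna1i held 9.51% of T-type UMIs in the mutant and 8.63% in the wt library. Per 100 kb Cacna1h was above Cacna1i in other nuclei, at 42.0 against 35.6 CPM (mutant) and 42.3 against 35.9 CPM (wt).

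Of the auxiliary calcium channel subunits, Cacnb2 led the beta family per 100 kb in all 4 classes, and Cacng8 and Cacng7, both TARPs, led the gamma family. The alpha2delta subunits, which bring the pore to the membrane, differed between classes. Cacna2d3 made up 62.4% of the family's UMIs in mutant and 57.4% in wt dopamine nuclei, against 40.9% and 38.4% in mutant and wt other nuclei. Its lead was not particular to dopamine nuclei, where it stood at 1108 CPM in the mutant and 1017 CPM in the wt library. In GABA-tagged nuclei Cacna2d3 stood at 1180 CPM (mutant) and 1203 CPM (wt), and Cacna2d1 at 258 and 118 CPM. Cacna2d1, the main gabapentin target, held 29.8% in mutant and 34.8% in wt dopamine nuclei, against 51.8% and 53.2% in mutant and wt other nuclei. Cacna2d3 is the longer gene, and per 100 kb the order in dopamine nuclei differed between the libraries. Cacna2d3 stood at 136 and Cacna2d1 at 120 CPM per 100 kb in the mutant library, and at 125 and 140 in the wt library. In other nuclei Cacna2d1 was the higher, at 200 against 85.1 CPM per 100 kb (mutant) and 186 against 72.3 (wt). Per 100 kb, Hcn2 stood above Hcn3 and Hcn3 above Hcn4 in all 4 classes.

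Between dopamine and other nuclei of the same library, 38 members were measured in both libraries and none was at least 2-fold higher in dopamine nuclei of both (background 0.865% of 14343 genes). The count lower in both libraries was 2 (background 1.67%). These were Cacna1i and Scn7a, which encodes Nax, a sodium channel relative that senses the sodium level. Cacna1i stood at 12.6 CPM in mutant dopamine nuclei against 39.5 CPM in mutant other nuclei, and at 9.93 against 39.8 CPM in wt nuclei. Its ratio was 0.320 (0.290 to 0.353) in the mutant and 0.249 (0.213 to 0.291) in the wt library. Scn7a stood at 9.88 CPM in mutant dopamine nuclei against 26.0 CPM in mutant other nuclei (ratio 0.381, 0.339 to 0.428), and at 5.71 against 19.3 CPM in wt nuclei (ratio 0.296, 0.239 to 0.369). Both genes were low in each class, and neither overlaps another annotated gene. Scn7a was no longer past 2-fold in both libraries at dopamine thresholds of 3 or 10 UMIs per 10000, or with every nucleus weighted equally, and Cacna1i was.

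Against GABA-tagged nuclei, which leaves glia and untagged nuclei aside, Cacna1i was again lower in dopamine nuclei of both libraries, at 12.6 against 37.5 CPM in the mutant and 9.93 against 44.4 CPM in the wt library. Of 37 members measured, it was the only one lower in both (background 1.32%). The only one higher in both was Cacna2d1 (background 1.19%), at 530 CPM in dopamine against 258 CPM in GABA-tagged nuclei of the mutant library and 616 against 118 CPM in the wt library. Against all other nuclei pooled Cacna2d1 was lower in dopamine nuclei, at 530 against 880 CPM in the mutant and 616 against 819 CPM in the wt library, so its place depended on the nuclei it was set against. The wt GABA-tagged class held 46 nuclei, so its values rest on 810174 UMIs.

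In the genotype comparison, 39 members were measured in dopamine nuclei, meaning at least 10 UMIs over both libraries. Cacng5 was higher in mutant nuclei by more than 1.5-fold on a scale with 5 CPM added (background 1.99% of 16324 genes). Cacna2d4 was lower (background 1.46%). The other 37 stayed within 1.5-fold. The median log2 ratio of the members was 0.02, as it was for all genes, and 21 of the 39 were above 0. Scn4a and Scn10a had too few UMIs to be measured.

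Cacng5, a TARP of the type II group, stood at 9.89 CPM in mutant and 3.68 CPM in wt dopamine nuclei, from 680 and 145 UMIs. Its ratio was 2.69 (2.24 to 3.24). Within bins of dopamine tags, given further on, it was past 1.5-fold in 1 of 3. Thinned to 2000 UMIs each, 1.93% (1.46 to 2.51) of 2848 mutant and 0.623% (0.269 to 1.22) of 1285 wt dopamine nuclei had a Cacng5 tag, and unthinned the shares were 16.4% in mutant and 7.95% in wt dopamine nuclei. The gene held 2.15% of gamma subunit UMIs in mutant and 0.953% in wt dopamine nuclei. Among gamma subunits, Cacng3 at 115 CPM in mutant and 85.1 CPM in wt dopamine nuclei came next with 5 CPM added, at a ratio of 1.35 (1.29 to 1.40), within the limit.

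Cacna2d4, an alpha2delta subunit best known from photoreceptors, stood at 3.30 CPM in mutant and 7.59 CPM in wt dopamine nuclei, from 227 and 299 UMIs, with a ratio of 0.435 (0.364 to 0.519). Unthinned, 7.03% of mutant and 16.7% of wt dopamine nuclei had a Cacna2d4 tag. Thinned, the shares were 0.632% (0.375 to 0.997) in mutant and 0.934% (0.483 to 1.63) in wt dopamine nuclei, with intervals that overlap. At a dopamine threshold of 3 UMIs per 10000 Cacna2d4 came within 1.5-fold, at a log2 ratio of -0.58. Both members past 1.5-fold were thus scarce transcripts.

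The HCN genes described here stayed within 1.5-fold in dopamine nuclei. Hcn2 stood at 30.7 CPM in mutant and 30.4 CPM in wt dopamine nuclei (ratio 1.01, 0.940 to 1.08), and Hcn3 at 20.4 and 21.3 CPM (0.954, 0.875 to 1.04). Hcn4, the main pacemaker isoform of the heart, stood at 9.98 CPM in mutant and 6.73 CPM in wt dopamine nuclei (1.48, 1.29 to 1.72), a log2 ratio of 0.35 with 5 CPM added. In other nuclei Hcn2 stood at 36.8 CPM in the mutant and 36.9 CPM in the wt library, Hcn3 at 18.2 and 18.4 CPM, and Hcn4 at 5.96 and 4.47 CPM (1.33, 0.895 to 2.04).

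The members nearest to the limit without passing it were Scn7a, at 9.88 CPM in mutant and 5.71 CPM in wt dopamine nuclei (log2 ratio 0.47, past 1.5-fold where 1 CPM was added in place of 5), Cacna1c, at 907 and 667 CPM (0.44), and Cacng3 (0.41). Scn1a stood at 287 CPM in mutant and 216 CPM in wt dopamine nuclei (0.40). On the lower side the nearest was Cacna1a, at 986 CPM in mutant and 1277 CPM in wt dopamine nuclei (-0.37). The Cav1.3 gene Cacna1d stood at 514 CPM in mutant and 518 CPM in wt dopamine nuclei, a ratio of 0.991 (0.974 to 1.01). Scn3b, Cacnb2, Cacng8 and Cacna2d2 also had ratios between 0.961 and 1.03.

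Summed over the genes described here, the level was 1545 CPM in mutant and 1492 CPM in wt dopamine nuclei for sodium channel alpha subunits, and 90.2 and 86.3 CPM for sodium channel beta subunits. For calcium channel pores it was 1421 CPM in mutant and 1186 CPM in wt dopamine nuclei for the L-type group, 2298 and 2755 CPM for the P/Q, N and R group and 133 and 115 CPM for the T-type group. The alpha2delta sum was 1775 CPM in mutant and 1771 CPM in wt dopamine nuclei, the beta sum 1501 and 1581 CPM and the gamma sum 460 and 386 CPM. The L-type sum was thus the higher in mutant nuclei and the P/Q, N and R sum the lower, each led by its most abundant gene, Cacna1c and Cacna1a. Cacna1a did not keep this direction in the lowest bin of dopamine tags, given further on.

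Within the limit, sodium channel pores went both ways. Scn8a, the Nav1.6 pore of the axon initial segment, stood at 247 CPM in mutant and 203 CPM in wt dopamine nuclei (1.22, 1.19 to 1.25). Scn9a stood at 168 CPM in mutant and 206 CPM in wt dopamine nuclei (0.816, 0.793 to 0.839), and Scn3a at 360 and 420 CPM (0.856, 0.840 to 0.874). All 3 T-type pores were slightly above 1, with ratios of 1.14 for Cacna1g, 1.17 for Cacna1h and 1.27 for Cacna1i. In the lowest bin of dopamine tags, given further on, Cacna1h and Cacna1i were below 1. Both other pores of the P/Q, N and R group were below 1, with ratios of 0.860 for Cacna1e and 0.936 for Cacna1b. Of the beta subunits, Cacnb2, Cacnb4, Cacnb1 and Cacnb3 had ratios between 0.913 and 1.07.

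In other nuclei, with 5 CPM added, the comparison put none of 37 members past 1.5-fold (background 1.00% higher and 1.94% lower of 13491 genes). The median log2 ratio was 0.04, beside -0.01 for all genes. Cacng5 stood at 8.38 CPM in mutant and 4.61 CPM in wt other nuclei (1.82, 1.24 to 2.73), and Cacna2d4 at 4.52 and 6.71 CPM (0.674, 0.469 to 0.980). The ratios of both genes thus lay on the same side of 1 in both classes. No test of the difference between classes was possible. Of 33 members measured in the few GABA-tagged nuclei, 6 were higher in the mutant library (background 7.47% of 7819 genes) and 1 was lower (background 3.56%). The 6 were Cacna2d1, at 258 CPM in mutant and 118 CPM in wt GABA-tagged nuclei, Cacng4, at 59.3 and 25.9 CPM, Scn2b, Cacnb1, Scn4b and Cacng5, the last 2 on 1 wt UMI each. The lower one was Scn7a, at 17.8 CPM in mutant and 34.6 CPM in wt GABA-tagged nuclei (0.516, 0.318 to 0.853). In untagged nuclei none of 36 was past 1.5-fold (background 1.40% higher and 1.04% lower of 12136 genes).

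Within each library alone, Cacna1i and Scn7a were also the 2 members lower in dopamine than in other nuclei by 2-fold (background 1.88% in the mutant and 3.46% in the wt library), and none was higher (background 1.23% and 1.53%).

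The background level of free RNA was read from nuclei in which oligodendrocyte genes gave at least 50 UMIs per 10000, a limit set after the data were seen. There were 50 such nuclei in the mutant and 41 in the wt library, with median depths of 3451.5 and 3490 UMIs. Set against dopamine nuclei, 24 of 37 members were at least 2-fold lower in them in both libraries (background 13.6% of 13820 genes), and 2 were higher (background 8.51%). Cacng5 had 0 UMIs in these nuclei of the mutant library, which allows up to 12.9 CPM, and 1 UMI in the wt library. That floor is above its level in dopamine nuclei, so free RNA could not be separated from expression for Cacng5 at this depth.

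The 2 members higher in oligodendrocyte nuclei of both libraries were Hcn2 and Cacna2d4. Hcn2 stood at 168 CPM (120 to 230) in mutant and 166 CPM (111 to 239) in wt oligodendrocyte nuclei, against 30.7 and 30.4 CPM in mutant and wt dopamine nuclei. Hcn3 and Hcn4 had 0 UMIs in these nuclei of both libraries. Cacna2d4 stood at 30.2 CPM in mutant and 40.2 CPM in wt oligodendrocyte nuclei, from 7 UMIs each. The oligodendrocyte list in dopamine nuclei summed to 145 CPM in the mutant and 167 CPM in the wt library, against 10278 and 11831 CPM in the oligodendrocyte nuclei themselves. Its part in the Cacna2d4 ratio was not tested.

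**Figure D2:**
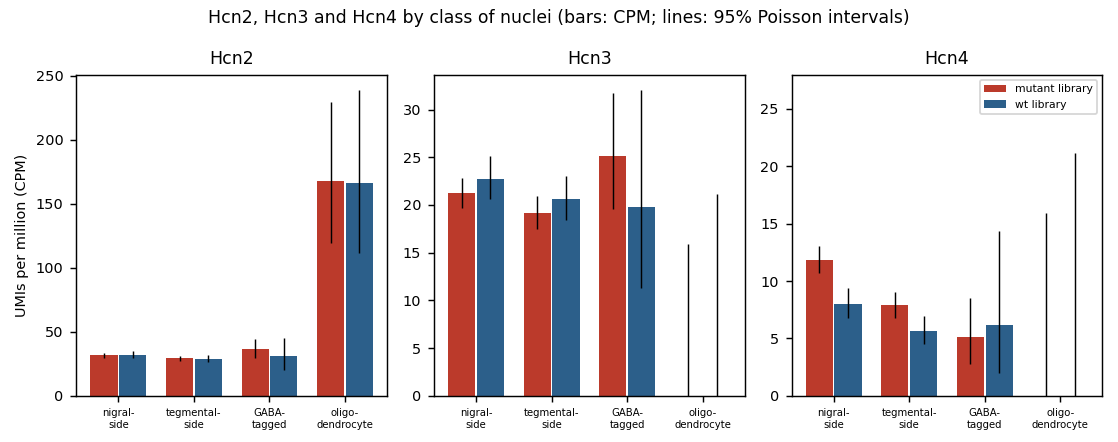
Hcn2, Hcn3 and Hcn4 in nigral-side, tegmental-side, GABA-tagged and oligodendrocyte nuclei, in CPM with separate axes that start at 0; the mutant library is left of the wt library in each pair and lines are 95% Poisson intervals. Hcn2 is highest in oligodendrocyte nuclei of both libraries, at 168 CPM in mutant and 166 CPM in wt nuclei, where Hcn3 and Hcn4 had no UMI, and Hcn4 is higher in mutant than in wt nuclei of both sides.

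Dopamine nuclei were then split by 2 marker lists that hold no channel gene. Each list was first divided by its mean over wt dopamine nuclei. Nuclei leaning to a nigral list (Sox6, Aldh1a7, Ndnf, Anxa1, Igf1 and Lmo3) by more than 1.5 times are called nigral-side, and those leaning to a tegmental list (Otx2, Neurod6, Calb1, Slc17a6, Tacr3, Grp, Lpl, Adcyap1 and Eya1) tegmental-side, after the substantia nigra and the ventral tegmental area. There were 1293 mutant and 534 wt nigral-side nuclei and 1215 mutant and 586 wt tegmental-side nuclei, with 367 mutant and 200 wt nuclei between. Median depths were 22407 and 28608 UMIs in mutant and wt nigral-side nuclei and 16351 and 21945 UMIs in mutant and wt tegmental-side nuclei.

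Of 36 members measured, none was at least 1.5-fold higher on the nigral side in both libraries (background 1.23% of 13407 genes), and 5 were lower there in both (background 2.80%). Scn9a, the Nav1.7 pore known from sensory neurons, stood at 116 CPM on the nigral and 233 CPM on the tegmental side of the mutant library, and at 150 and 270 CPM in the wt library. Its ratio was 0.499 (0.479 to 0.519) in the mutant and 0.555 (0.528 to 0.582) in the wt library. Scn7a, which lies near Scn9a on chromosome 2, stood at 4.27 against 16.5 CPM in the mutant (0.258, 0.212 to 0.312) and 2.46 against 10.2 CPM in the wt library (0.241, 0.169 to 0.339). Of the low-voltage T-type pores, both Cacna1h and Cacna1i were lower on the nigral side. Cacna1h stood at 16.4 against 29.9 CPM in the mutant and 11.0 against 28.9 CPM in the wt library, and Cacna1i at 6.34 against 20.5 CPM and 5.03 against 14.6 CPM. Cacng4, a TARP, stood at 41.2 against 71.4 CPM in the mutant (0.577, 0.538 to 0.618) and 24.9 against 65.6 CPM in the wt library (0.379, 0.338 to 0.424).

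Within the mutant library 1 member was higher (background 1.81%) and 5 were lower (background 3.51%) on the nigral side, and within the wt library none was higher (background 2.37%) and 6 were lower (background 4.18%). The 2 past the limit in 1 library only were Cacna2d3 and Cacng3. Cacna2d3, an alpha2delta subunit, was higher on the nigral side of the mutant library, at 1303 against 810 CPM, with 1129 against 867 CPM in the wt library. Cacng3 was lower on the nigral side of the wt library, at 62.4 against 106 CPM. The HCN genes described here were within the limit between the sides. Hcn4 stood at 11.8 CPM on the nigral and 7.88 CPM on the tegmental side of the mutant library, a ratio of 1.5 (1.26 to 1.79), and at 8.0 against 5.61 CPM in the wt library (1.42, 1.08 to 1.88). Hcn2 stood at 31.8 against 29.3 CPM in the mutant (1.09, 0.989 to 1.19) and 32.1 against 28.8 CPM in the wt library (1.11, 0.982 to 1.26).

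**Figure D3:**
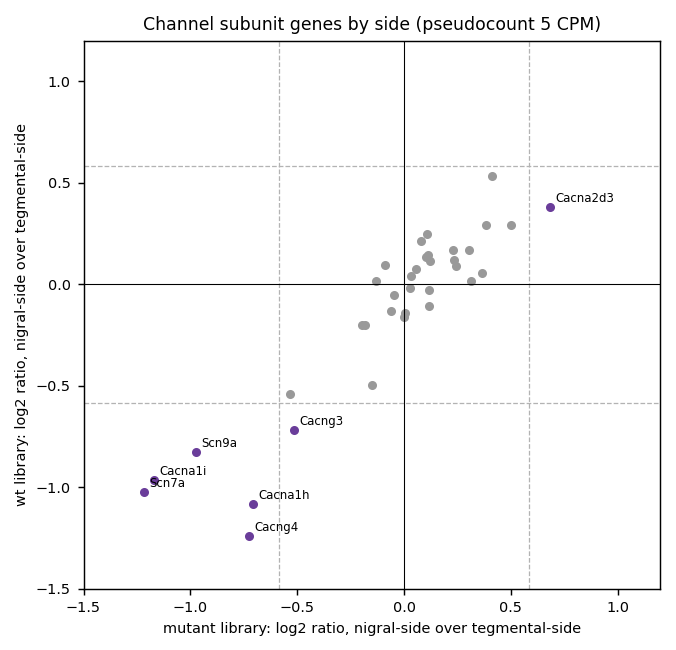
Log2 ratio of nigral-side over tegmental-side dopamine nuclei for each measured member, with 5 CPM added, in the mutant library (horizontal) and the wt library (vertical); dashed lines mark 1.5-fold, and named purple points pass it in at least 1 library. Scn9a, Scn7a, Cacna1i, Cacna1h and Cacng4 lie at the lower left, past 1.5-fold in both libraries.

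Within the nigral side, 3 of 37 members were higher in mutant nuclei (background 3.09% of 14563 genes) and 1 was lower (background 2.31%). Those higher were Cacng5 at 11.5 and 4.03 CPM (2.86, 2.22 to 3.73), Cacng4 at 41.2 and 24.9 CPM (1.65, 1.49 to 1.84) and Scn1a at 274 and 180 CPM (1.52, 1.46 to 1.59) in mutant and wt nuclei. Cacna2d4 was lower, at 3.52 CPM in mutant and 8.39 CPM in wt nigral-side nuclei (0.419, 0.328 to 0.536). The GABA list summed to 184 CPM in mutant and 20.1 CPM in wt nigral-side nuclei, and to 171 and 47.0 CPM in mutant and wt tegmental-side nuclei. The nigral list was 1034 CPM in mutant and 1338 CPM in wt nigral-side nuclei, and the median of dopamine tags 13.9 and 29.0 per 10000. The part of these differences in the ratios was not tested.

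On the tegmental side, with 5 CPM added, none of 37 members was past 1.5-fold (background 2.12% higher and 1.26% lower of 14061 genes). Cacng5 stood at 7.80 and 3.68 CPM (2.12, 1.57 to 2.90) and Cacna2d4 at 2.91 and 6.26 CPM (0.466, 0.339 to 0.637) in mutant and wt tegmental-side nuclei, both on the same side of 1 as on the nigral side. Both ratios were past 1.5-fold without the added 5 CPM, as was that of Scn7a, at 16.5 and 10.2 CPM (1.62, 1.35 to 1.96). Scn7a was past it in this way on the nigral side too, at 4.27 and 2.46 CPM (1.73, 1.23 to 2.49). So were Cacng3 (1.53, 1.43 to 1.64) and Scn2b (1.51, 1.30 to 1.77) there. On the lower side of 1 there was Scn11a (0.516, 0.241 to 1.10), on 16 UMIs in each library. The difference between the sides was not tested. Nuclei between the sides had Cacng5 and Scn7a higher in the mutant library (background 2.80% of 11710 genes) and Cacna2d4 lower (background 2.39%), of 35 measured. Scn7a there stood at 12.8 CPM in mutant and 3.83 CPM in wt nuclei (3.34, 2.12 to 5.49).

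Because mutant nuclei carried fewer dopamine tags, the comparison was repeated within bins of those tags, an alternative added after the data were seen. There were 775 mutant and 143 wt nuclei with 5 to 10 tags per 10000, 1589 and 317 with 10 to 20, and 511 and 860 with 20 or more. In the lowest bin 3 members were higher (background 4.41%) and 3 lower (background 5.33%) of 37. In the middle bin none was higher (background 2.69%) and 2 were lower (background 3.98%) of 37, and of 36 measured in the highest bin 2 were higher (background 3.23%) and 1 was lower (background 2.44%). The bins differed in other ways too: in the lowest the nigral list was 534 CPM in mutant and 276 CPM in wt nuclei, and the GABA list 203 and 131 CPM. In the highest bin the GABA list was 136 CPM in mutant and 14.0 CPM in wt nuclei.

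Cacng5 was above 1 in all 3 bins, with ratios of 3.44 (1.78 to 7.61), 1.82 (1.35 to 2.49) and 2.04 (1.42 to 2.90) in rising order of tags. With 5 CPM added it was past 1.5-fold in the lowest bin only, and its log2 ratio was 0.51 with 10 to 20 tags and 0.48 with 20 or more, both within the limit. Cacna2d4 was 0.991 (0.525 to 2.07) in the lowest bin, on 80 mutant and 11 wt UMIs, then 0.398 (0.296 to 0.540) and 0.321 (0.195 to 0.503). Cacna1i turned its direction across the bins. With 5 to 10 tags it stood at 19.5 CPM in mutant and 38.1 CPM in wt nuclei (0.510, 0.409 to 0.641), and with 10 to 20 tags at 9.82 and 18 CPM (0.546, 0.455 to 0.659). With 20 tags or more it stood at 10.2 CPM in mutant and 4.45 CPM in wt nuclei (2.30, 1.72 to 3.06). Scn7a stood at 14.1 CPM in mutant and 18.3 CPM in wt nuclei with 5 to 10 tags, at 8.13 and 8.72 CPM with 10 to 20, and at 8.55 and 3.46 CPM with 20 or more (2.47, 1.79 to 3.39). For both genes the wt level was lower in bins with more tags, and the mutant level varied less.

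The lowest bin singled out more abundant members as well. Cacna2d1 stood there at 581 CPM in mutant and 1170 CPM in wt nuclei (0.497, 0.477 to 0.517), Scn9a at 169.8 and 282 CPM (0.603, 0.557 to 0.654) and Cacna2d3 at 1081 and 718 CPM (1.51, 1.44 to 1.58). Within 1.5-fold in this bin were Cacna1a, at 900 and 830 CPM (1.08, 1.04 to 1.13), and Cacna1h, at 26.1 and 38.9 CPM (0.671, 0.542 to 0.837). Both lay on the other side of 1 from their ratio in all dopamine nuclei. Hcn4 stood at 10.7 CPM in mutant and 4.86 CPM in wt nuclei with 5 to 10 tags (2.19, 1.25 to 4.18), at 10.2 and 6.03 CPM with 10 to 20 (1.69, 1.27 to 2.27), and at 7.47 and 7.15 CPM with 20 or more (1.04, 0.772 to 1.40).

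**Figure D4:**
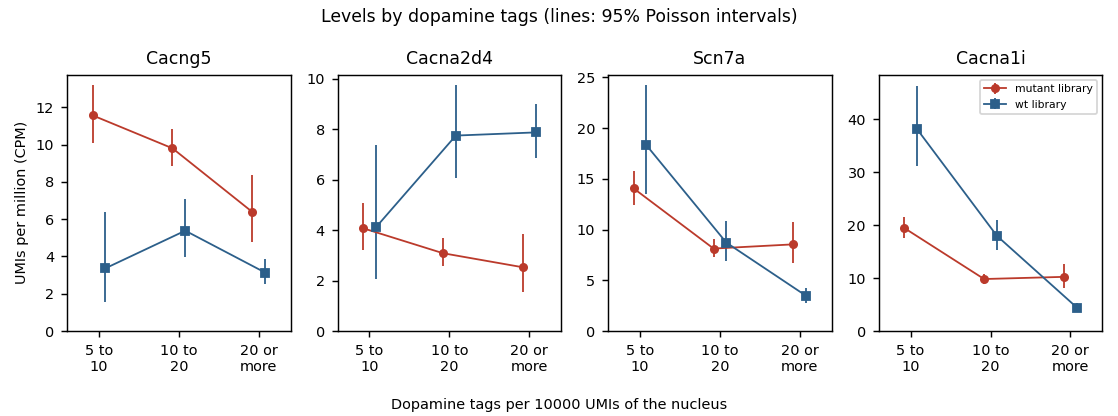
Cacng5, Cacna2d4, Scn7a and Cacna1i in dopamine nuclei by their number of dopamine tags per 10000 UMIs, in CPM with 95% Poisson intervals; circles are the mutant library, squares the wt library, and each axis starts at 0. Cacng5 has ratios of 3.44, 1.82 and 2.04 in rising order of tags, past 1.5-fold with 5 CPM added in the lowest bin only, and Cacna1i is 19.5 against 38.1 CPM in mutant and wt nuclei with 5 to 10 tags and 10.2 against 4.45 CPM with 20 or more.

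Mutant dopamine nuclei also differed among themselves in Hox transcripts. Hox-tagged nuclei, with at least 1 Hox UMI per 10000, numbered 2045 (median 22102 UMIs), and Hox-free nuclei, with 0 Hox UMIs, numbered 584 (median 11136 UMIs). A count of 0 depends on depth, and the nigral list was 717 CPM in Hox-tagged and 284 CPM in Hox-free nuclei, so depth and side moved with this split. Of 37 members, Hcn4 was higher in Hox-tagged nuclei (background 2.76% of 15025 genes) and 5 were lower (background 3.17%). Hcn4 stood at 11.2 CPM in Hox-tagged and 5.22 CPM in Hox-free nuclei (2.16, 1.56 to 3.05). The 5 lower were Scn9a, Scn7a, Cacng4, Cacna1i and Cacna1h, the same 5 genes as were lower on the nigral side. Cacna1i stood at 9.31 CPM in Hox-tagged and 27.1 CPM in Hox-free nuclei (0.343, 0.291 to 0.405), and Scn9a at 152 and 236 CPM (0.644, 0.612 to 0.678). Set against all wt dopamine nuclei, Hox-free mutant nuclei alone had 5 of 38 members higher (background 3.16% of 14286 genes) and 1, Cacna2d4, lower (background 2.57%). Cacng5 had a log2 ratio of 0.44, not past 1.5-fold.

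The split was also made within each side, a comparison added after the data were seen, with 1137 Hox-tagged and 108 Hox-free nuclei on the nigral side and 667 and 383 on the tegmental side. On the nigral side 2 of 36 members were higher in Hox-tagged nuclei (background 6.32%) and 5 were lower (background 5.15%). The higher ones were Hcn4, at 12.4 CPM in Hox-tagged and 4.70 CPM in Hox-free nuclei (2.64, 1.2 to 7.23, on 6 Hox-free UMIs), and Cacna2d4, on 1 Hox-free UMI. The lower ones were again Scn9a, Scn7a, Cacng4, Cacna1i and Cacna1h. On the tegmental side 1 of 36 was higher (background 2.18%) and 1 lower (background 1.60%): Cacng5, at 9.86 CPM in Hox-tagged and 4.39 CPM in Hox-free nuclei (2.24, 1.45 to 3.61), and Cacna1i, at 15.6 and 30.7 CPM (0.507, 0.415 to 0.620). Cacng5 on the nigral side stood at 11.3 CPM in Hox-tagged and 17.2 CPM in Hox-free nuclei (0.657, 0.427 to 1.06), on 22 Hox-free UMIs. The GABA list on the nigral side was 186 CPM in Hox-tagged and 172 CPM in Hox-free nuclei. Depth remained unequal there, with medians of 24037 UMIs in Hox-tagged and 10141.5 UMIs in Hox-free nuclei. The side lists also still differed, the nigral list at 1040 and 843 CPM and the tegmental list at 43.0 and 68.2 CPM. In tegmental-side nuclei the nigral list was 180 CPM in Hox-tagged and 135 CPM in Hox-free nuclei, and the tegmental list 319 and 449 CPM. What these differences add to the ratios was not tested.

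A list of 25 partners of these channels, chosen by known binding or regulation, was set beside the members, and all were measured in dopamine nuclei. Stac and Stac2, adaptors that bind L-type channels, were higher in mutant nuclei (2 of 25, background 1.99%), and Pex5l, the HCN auxiliary subunit TRIP8b, was lower (1 of 25, background 1.46%). The median log2 ratio of the 25 was 0.12, beside 0.02 for all genes, and 18 of 25 were above 0, beside 8996 of 16324 for all genes. Stac stood at 41.4 CPM in mutant and 20.4 CPM in wt dopamine nuclei (2.03, 1.88 to 2.20), and Stac2 at 15.9 and 4.52 CPM (3.51, 2.99 to 4.14). Pex5l stood at 906 CPM in mutant and 1550 CPM in wt dopamine nuclei (0.584, 0.578 to 0.591). Next to the limit were Rims1, a presynaptic protein that binds calcium channel beta subunits, at 1861 CPM in mutant and 2720 CPM in wt dopamine nuclei (0.684, 0.679 to 0.690), and Cabp1, at 24.3 and 15.6 CPM (1.56, 1.42 to 1.72). In other nuclei Pex5l was 345 CPM in the mutant and 393 CPM in the wt library, Stac2 was 22.1 and 21.0 CPM, and Stac was 37.5 and 27.1 CPM (1.38, 1.18 to 1.63), on the same side of 1 as in dopamine nuclei. Of the 25 partners Calm3, a calmodulin gene, was the only one past 1.5-fold in other nuclei, at 26.1 CPM in the mutant and 13.1 CPM in the wt library (background 1.00% higher and 1.94% lower). Of 23 measured in GABA-tagged nuclei, 4 were higher in the mutant library (background 7.47%) and 1 lower (background 3.56%). The lower one was Stac2, at 31.7 against 58.0 CPM (0.546, 0.379 to 0.796). In dopamine nuclei with 5 to 10 tags Stac was within the limit (1.33, 1.05 to 1.72) and Stac2 was past it (2.74, 1.64 to 4.96).

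Pex5l also followed the sides more than any channel gene described here. It stood at 1420 CPM on the nigral and 302 CPM on the tegmental side of the mutant library (4.71, 4.60 to 4.82), and at 2652 against 435 CPM in the wt library (6.10, 5.94 to 6.26). It was the only partner of 25 past 1.5-fold between the sides in both libraries (background 1.23% higher and 2.80% lower). It was also the only partner past 2-fold higher in dopamine than in other nuclei of both libraries, and Cabp1, a calcium-binding modulator of calcium channels, the only one lower (background 0.865% higher and 1.67% lower). Oligodendrocyte nuclei held more than dopamine nuclei as a whole, at 2767 CPM in the mutant and 2417 CPM in the wt library. Among mutant nuclei Pex5l was 1027 CPM in Hox-tagged and 346 CPM in Hox-free nuclei (2.97, 2.86 to 3.09). Between mutant and wt nuclei its direction turned with the dopamine tags. It stood at 704 CPM in mutant and 337 CPM in wt nuclei with 5 to 10 tags (2.09, 1.95 to 2.23), at 995 and 801 CPM with 10 to 20 (1.24, 1.21 to 1.27), and at 943 and 1922 CPM with 20 or more (0.490, 0.479 to 0.502). Within the tegmental side its ratio of 0.694 (0.671 to 0.717) was inside the 1.5-fold limit with 5 CPM added, and within the nigral side its ratio was 0.535 (0.529 to 0.542), past it.

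Promoter sequence was read for 3 members, since PRC2 is known to settle at CG-rich promoters. RefSeq promoters of build GRCm38.p6 were at hand for 32 of the 41 members (43 start sites), Cacna2d4 not among them. The 250 bases before each start are shown for Cacng5, which was higher in mutant dopamine nuclei and has 2 starts, and for Cacna1i and Scn7a, which were lower in dopamine than in other nuclei. Each is written 5′ to 3′ on the strand of the gene with every CG in capitals. Cacng5 lies on the minus strand of chromosome 11, Cacna1i on the plus strand of chromosome 15 and Scn7a on the minus strand of chromosome 2. The windows are chr11:107915056-107915305 and chr11:107911363-107911612 for Cacng5, chr15:80286988-80287237 for Cacna1i and chr2:66784911-66785160 for Scn7a.
Cacng5 outer start: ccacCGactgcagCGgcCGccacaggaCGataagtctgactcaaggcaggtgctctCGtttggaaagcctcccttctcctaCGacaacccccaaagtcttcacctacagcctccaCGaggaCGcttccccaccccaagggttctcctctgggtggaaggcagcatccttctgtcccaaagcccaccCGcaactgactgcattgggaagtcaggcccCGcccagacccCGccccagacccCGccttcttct
Cacng5 inner start: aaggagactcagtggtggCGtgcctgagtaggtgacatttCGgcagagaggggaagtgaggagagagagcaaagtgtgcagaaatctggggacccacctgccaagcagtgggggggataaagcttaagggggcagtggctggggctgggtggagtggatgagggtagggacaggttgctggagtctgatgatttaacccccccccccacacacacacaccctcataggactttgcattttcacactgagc
Cacna1i: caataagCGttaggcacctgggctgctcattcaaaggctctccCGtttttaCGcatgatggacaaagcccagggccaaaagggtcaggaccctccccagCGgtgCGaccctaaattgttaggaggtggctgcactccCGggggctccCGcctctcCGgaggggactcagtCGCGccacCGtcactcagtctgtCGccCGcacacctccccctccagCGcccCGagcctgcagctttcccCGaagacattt
Scn7a: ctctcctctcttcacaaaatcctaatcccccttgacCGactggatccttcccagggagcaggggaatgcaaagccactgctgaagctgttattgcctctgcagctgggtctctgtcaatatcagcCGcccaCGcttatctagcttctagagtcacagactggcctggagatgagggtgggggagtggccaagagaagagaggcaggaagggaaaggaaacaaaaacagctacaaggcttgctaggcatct

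The outer start of Cacng5 had 12 CG in its 250 bases and the inner start 2. Over all 32851 RefSeq promoters the median was 6, and 33.5% had at least 12 and 81.2% at least 2. Cacna1i had 16 CG, a number reached by 25.4% of promoters, and Scn7a had 3, reached by 71.0%. Of the 43 start sites of members, those with most CG were a Cacna1d start (50) and a Cacna1c start (48). The other starts of these genes had 2 to 5, and both genes were within 1.5-fold between mutant and wt dopamine nuclei. A link between CG content and the genotype ratios was not tested. A CG reads the same on both strands. The 2 scarce pore genes that were low in dopamine nuclei thus differed in CG content, and which Cacng5 start gave the tags could not be read from 3' counts.

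By annotation (GENCODE M21, mm10), Cacna2d4 spans chr6:119236526-119352407 on the plus strand and overlaps Lrtm2 on the other strand. Cacng5, at chr11:107874605-107915055 on the minus strand, overlaps no other annotated gene. The sources used here do not give whether strand was used in counting, so for Cacna2d4 tags of the overlapping gene could not be told apart.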

How the data were processed

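The authors deposited 1 table of UMI counts, 23481 genes by 5740 nuclei, whose barcode prefixes name the mutant and the wt library. Reads were processed with Cell Ranger 3.1.0 against mm10, per the submitters' processing notes. The 8 samples are 4 flow cell lanes of each library, and the table joins the lanes. The counts are raw whole numbers per gene and nucleus, per the file header and values, and the fewest genes in a nucleus was 502. The sources used here do not give how empty droplets were removed. No doublet caller was run.

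Counts were summed per class and library and divided by the class total to give CPM, with exact Poisson 95% intervals. Ratios have exact binomial (Clopper-Pearson) intervals, as do shares of nuclei. A gene was called higher or lower when the log2 ratio of CPM plus 5 passed 1.5-fold, or 2-fold between dopamine and other nuclei. Background shares cover genes of at least 50 UMIs over both sides, and members and partners needed 10. Named in full, by a written rule, were members past these limits and the leading pore of each family per gene length. Intervals and floors (3 UMIs) cover counting error only. With 1 library per genotype there was no test, and PCR and pooling error were not measured. The members and lists were chosen with earlier results of these data known. The rule on symbols matched 44 genes, of which 3 are not reported here.

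Gene spans came from GENCODE M21, and promoters from RefSeq (GRCm38.p6), of which the 50 bases after the start were left out. Calculations used Python 3.11.15, numpy 2.4.6, scipy 1.17.1, pandas 2.3.3 and matplotlib 3.10.9, and the comparison step was tested on simulated counts. Alternatives were dopamine thresholds of 3, 10 and 20, a rule on Ddc alone, nuclei weighted equally, 1 CPM added, a depth of 5000 UMIs, nuclei without glial tags, a median set to 0, members of 50 UMIs, sides weighted as in wt, bins of dopamine tags, and Hox-free mutant nuclei.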

Additional observations from a re-analysis of the deposited data

How the results depend on the processing

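No paired analysis was possible because the table does not keep the flow cell lanes apart and each genotype is 1 library. For the same reason leaving out a replicate was not possible. Of the counts and medians recomputed, 80 stayed within their limits and 12 did not. With a dopamine threshold of 3 UMIs per 10000, 0 members were lower in mutant dopamine nuclei, since Cacna2d4 then had a log2 ratio of -0.58. Higher in mutant dopamine nuclei were 2 members with 1 CPM added and 2 with Ddc alone at 3 or more (Scn7a and Cacng5 in each), and 2 at a dopamine threshold of 20 (Scn7a and Cacna1i), chosen after seeing the data. In other nuclei 1 member was higher in the mutant library at a threshold of 3 (Scn7a), 1 at a threshold of 10 (Cacng5), 1 with nuclei weighted equally (Scn2b) and 2 with 1 CPM added (Scn4b and Cacng5). Lower in dopamine than in other nuclei of both libraries was 1 member, Cacna1i, at thresholds of 3 and 10 and with equal weighting. With mutant nuclei limited to those without Hox UMIs, chosen after seeing the data, 5 members were higher (Scn7a, Cacng3, Cacng4, Cacna1i and Cacna1h; background 3.16%) and 1 was lower (Cacna2d4; background 2.57%). Over 15 settings the log2 ratio of Cacng5 in dopamine nuclei ran from 0.44 to 1.22, and Cacng5 was past 1.5-fold in 11 of the 15. The log2 ratio of Cacna2d4 ran from -0.998 to -0.01, and Cacna2d4 was past 1.5-fold in 13 of the 15. Its value of -0.01 came from the lowest bin of dopamine tags, on 11 wt UMIs, and has no readable direction. The settings share nuclei, and a threshold of 20 picks the same nuclei as the bin of 20 tags or more. The cause of these shifts was not tested. Depth limits the scarce members most: 1 UMI is 0.0145 CPM in mutant and 0.0254 CPM in wt dopamine nuclei, but 4.31 CPM in mutant oligodendrocyte nuclei.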
